A study of Drosophila melanogaster with 6 samples.

Results

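The histone genes of Drosophila were set against the binding sites of a tagged Cyclin G in wing imaginal discs. The genes were taken from the Ensembl/FlyBase annotation of the dm6 build by their symbols. Those beginning with His1:, His2A:, His2B:, His3:, His4: or His-Psi: form the cluster on 2L and numbered 119. Set beside them were the 5 single-copy genes His2Av, His3.3A, His3.3B, His4r and BigH1. Together these are 124 of 18358 annotated genes.

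The study mapped Cyclin G by chromatin immunoprecipitation and sequencing (ChIP-seq) of wing imaginal discs from female larvae of the third instar raised at 25 °C. The Myc-CycGΔP discs carried UAS-Myc-CycGdeltaP, a Myc-tagged protein without its PEST-rich domain, driven ubiquitously by da-Gal4 (genotype UAS-Myc-CycGdeltaP, da-Gal4/+), and gave 2 ChIP and 2 input libraries. The mock discs were da-Gal4/+ and gave 1 ChIP and 1 input library. The Myc-CycGΔP libraries were read to 75 bp and the mock libraries to 50 bp, and each ChIP used 600 discs. The deposited result is a single list of 3363 peaks, in which the reproducible peaks of both Myc-CycGΔP replicates, each called against its own input, were joined. It gives positions only, with no height, score or count, so no value below has a replicate error and the depth behind a peak is unknown. The mock ChIP was not analysed here. The tagged protein was overexpressed, so the list describes binding of the transgenic form.

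In Drosophila, the replication-dependent histones H1, H2A, H2B, H3 and H4 are encoded by a tandem array in which each unit holds 1 gene of every type. The genes are transcribed in S phase inside a nuclear body, the histone locus body, and their messages end in a stem-loop instead of a poly(A) tail. Within a unit His2A and His2B diverge from one short spacer, His3 and His4 diverge from another, and His1 has a promoter of its own. Replacement histones such as H2Av and H3.3 come from single-copy genes elsewhere whose transcription is not confined to S phase. The number of units in the assembly is smaller than the number known to be carried by the fly genome.

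Cyclin G peaks ran over nearly the whole array. Of the 119 cluster genes, 117 (98.3%) overlapped a peak by at least 1 bp, whereas 6.61% of all annotated genes did. A transcript start lay inside a peak in 106 cluster genes (89.1%), against 4.94% of all genes, and 98 cluster genes (82.4%) lay wholly inside peaks, against 1.11% of all genes. The median share of a gene body inside peaks was 100% for cluster genes and 0% for all genes. Away from the array, only His2Av of the 5 single-copy histone genes had a peak. Of the words of 75 bp, the length of a read, that began in the 36 peaks of the cluster, 97.9% occurred more than once in the genome, so most reads from one unit fit others equally well. The 119 genes are therefore not 119 separate measurements. The study itself named histone genes as an example of spurious signal in its methods, and left such genes out of its signal profiles because the signal was uniform along them.

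The sequences of the promoters show how alike the units are and where they differ. The spacer from which His2B and His2A diverge was wholly inside peaks in every unit that has both genes, and its example comes from a unit that lay wholly inside one peak. It is written from the His2B start to the His2A start, with TATAAA in capitals on either strand.
His2B:CG33886 to His2A:CG33838: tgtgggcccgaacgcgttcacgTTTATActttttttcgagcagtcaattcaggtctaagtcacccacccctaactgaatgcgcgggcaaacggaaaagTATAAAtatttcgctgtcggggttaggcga
This spacer spans 2L:21493295-21493422 and lies between the annotated transcript starts, outside any exon. The spacer between His4 and His3 is shown for the same unit and for the only unit in which it lay outside peaks. Capitals mark bases that differ between the pair after alignment.
His4:CG33885 to His3:CG33839: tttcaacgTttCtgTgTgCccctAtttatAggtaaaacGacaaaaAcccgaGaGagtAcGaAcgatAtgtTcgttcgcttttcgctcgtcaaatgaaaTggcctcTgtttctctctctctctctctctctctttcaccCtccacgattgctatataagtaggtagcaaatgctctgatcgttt
His4:CG33907 to His3:CG33806: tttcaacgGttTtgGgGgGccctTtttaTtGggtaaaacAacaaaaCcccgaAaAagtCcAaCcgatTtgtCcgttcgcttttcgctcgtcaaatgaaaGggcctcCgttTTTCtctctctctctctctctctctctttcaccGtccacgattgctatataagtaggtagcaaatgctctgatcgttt
The first lies at 2L:21494692-21494874 (100% inside a peak) and the second at 2L:21430067-21430254 (0% inside). They were 89.6% identical, with 19 substitutions and 5 unpaired bases. Next are the 200 bp upstream of 2 His1 genes. The first was wholly inside a peak and the second wholly outside, and the second is shared base for base by 4 consecutive units. Capitals again mark the bases that differ, those left over at the window ends included.
His1:CG33840 upstream: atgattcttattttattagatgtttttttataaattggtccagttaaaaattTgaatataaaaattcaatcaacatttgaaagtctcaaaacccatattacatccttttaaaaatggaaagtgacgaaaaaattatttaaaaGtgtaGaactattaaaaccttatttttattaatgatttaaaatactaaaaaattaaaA
His1:CG33831 upstream: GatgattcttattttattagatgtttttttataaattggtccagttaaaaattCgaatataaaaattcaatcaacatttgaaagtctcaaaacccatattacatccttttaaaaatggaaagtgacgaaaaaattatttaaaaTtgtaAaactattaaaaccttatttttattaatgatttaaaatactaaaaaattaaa
They lie at 2L:21496386-21496585 and 2L:21481145-21481344. These stretches differed by 3 substitutions and 2 unpaired bases (98.5% identity), so 200 bp with and without a peak were nearly the same sequence. The last sequences are from the single-copy genes, the 200 bp upstream of His2Av, which has a peak, and of His4r, which has none. In His2Av, the capitals mark ATCGAT, the core of the element bound by the factor DREF. It was searched after the values were seen.
His2Av upstream: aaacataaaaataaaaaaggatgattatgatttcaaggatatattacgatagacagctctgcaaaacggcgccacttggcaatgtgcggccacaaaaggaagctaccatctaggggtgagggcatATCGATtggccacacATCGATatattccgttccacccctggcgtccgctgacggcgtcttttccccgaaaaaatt
His4r upstream: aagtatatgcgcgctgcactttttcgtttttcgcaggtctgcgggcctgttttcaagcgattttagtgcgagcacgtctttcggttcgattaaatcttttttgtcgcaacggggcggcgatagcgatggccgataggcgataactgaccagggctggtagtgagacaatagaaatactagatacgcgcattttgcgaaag
They lie at 3R:26866729-26866928 and 3R:14625555-14625754, both on the plus strand.

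His2A, His2B, His3 and His4 encode the core histones. Their starts lay inside peaks in 85 of 88 genes. His2A had 20 of 20 (100%, 95% Wilson interval 83.9 to 100%), His2B 22 of 23 (95.7%, 79.0 to 99.2%), His3 22 of 23 (95.7%, 79.0 to 99.2%) and His4 21 of 22 (95.5%, 78.2 to 99.2%). The intervals cover counting error over genes only and take the genes as independent, which near-identical units are not. The 3 core histone genes with a start outside peaks were His2B:CG33908, His4:CG33907 and His3:CG33806, and all belong to the third unit of the array. Each of them still had at least 81.1% of its body inside peaks.

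His1 encodes the linker histone. Its start lay inside a peak in 16 of 23 genes (69.6%, 49.1 to 84.4%), a lower share than in any core histone type, and the His1 interval overlapped all of theirs. The bodies of the His1 genes were inside peaks over 96.3% of their bases and their promoters over 70.7%, where a promoter is the window from 250 bp before to 50 bp after the start. In the core types, promoters were inside peaks over 100% (His2A), 95.9% (His2B), 91.0% (His3) and 94.5% (His4) of their bases. Their bodies were inside peaks over 99.6% (His2A), 99.8% (His2B), 98.9% (His3) and 97.6% (His4) of their bases. His1 thus had the lowest values for both, and the promoter values lay further apart than the body values.

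**Figure D1:**
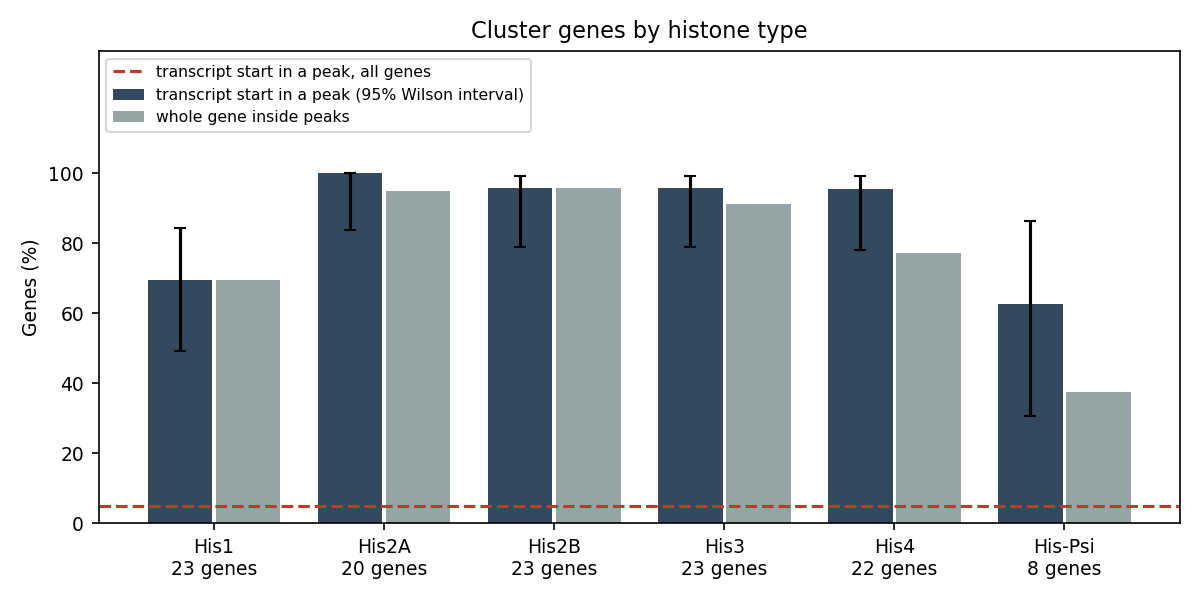
Percent of cluster genes of each type with a transcript start in a peak (dark bars, 95% Wilson intervals over genes) and lying wholly inside peaks (grey bars); the dashed line is the 4.94% of all genes with a start in a peak. His2A reached 100% and His1 69.6% of starts.

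The 7 His1 genes whose starts were outside peaks were neighbours. They were His1:CG33816, His1:CG33819, His1:CG33822, His1:CG33825, His1:CG33828, His1:CG33831 and His1:CG33834, which follow each other along the array with no bound His1 start among them. The starts of the core histone genes between them lay inside peaks. The gap at His1:CG33816 was 81 bp long and ended 9 bp inside the gene. At His1:CG33819 it was 98 bp long and ended 25 bp inside the gene. Both began close to the start, at -72 and -73 bp from it, so these starts were missed narrowly. At the next 4 genes the gaps were 355, 472, 413 and 373 bp long. They began at -261, -359, -313 and -281 bp from the start and ended 94, 113, 100 and 92 bp inside the gene. The gap at His1:CG33834 was the longest of the 7, with 1643 bp, of which 100 bp were a run of N in the assembly, and it took up 436 bp of the gene. The remaining 16 His1 starts were inside peaks, but in 4 of these genes only 52.5 to 61.0% of the 200 bp upstream was.

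The 4 His1 genes with the gaps of 355 to 472 bp are the ones whose upstream sequence is printed above as His1:CG33831. Its 75 bp words had a median of 4 copies in the genome. Upstream of the other 19 His1 genes the median was 20 copies, and 16 of these 19 starts lay inside a peak. All 4 starts with the rarer upstream sequence lay outside peaks, and the part of copy number in this was not tested.

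The 8 pseudogenes of the cluster, His-Psi, were less evenly covered. A start lay in a peak in 5 of 8 (62.5%, 30.6 to 86.3%), and 46.4% of their bases were inside peaks. His-Psi:CR31616 is the first gene of the cluster and His-Psi:CR31615 follows it. They were the only cluster genes with no overlap at all, and 63.5% of the 20 bp words of each were found in His2A genes. His-Psi:CR31754, with 99.6% of its words found in His3 genes, was wholly inside a peak, as were His-Psi:CR33802 and His-Psi:CR33811 (93.6% shared with His2A). His-Psi:CR33805 stands in the place of His2A in the third unit. It shared 79.3% with His2A, and 27.5% of it was inside peaks. His-Psi:CR33867 contains a pogo insertion of 1471 bp and had 18.01% of its bases inside peaks. His-Psi:CR31614, the last gene of the cluster and most like His1 (95.04%), had 97.7% inside. The 4 pseudogenes that shared over 90% of their words with intact genes were thus at least 97.7% inside peaks, and the other 4 at most 27.5%.

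Between genes, coverage differed with the kind of spacer. The spacers His2A-His2B (20 spacers, median 128 bp) and His1-His2B (23 spacers, median 136 bp) were inside peaks over 100% of their bases. The first lies between divergent transcript starts and the second between the end of His1 and the end of His2B. The His3-His4 spacers were covered over 94.5%, with 21 of 22 wholly inside. The His2A-His4 spacers, where the 2 genes converge, were covered over 86.3%, with 12 of 19 wholly inside. The long His3-His1 spacers, which end at the His1 promoter, were covered over 62.2%, with 6 of 22 wholly inside. Leaving out a roo retrotransposon of 9135 bp in one of them, this value was 84.2%. The short spacers were thus covered most. The exception was the His3-His4 spacer of the third unit, which lay wholly outside peaks.

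Peaks in the array were wide. The 36 peaks had a median width of 2643 bp, against 365 bp in the whole list, and ran from 121 to 10784 bp. They were 1.07% of the peaks in the list and 5.57% of its bases. The span from the first to the last annotated base of the cluster, 2L:21404181-21543688, was covered over 78.9%, and from the first His1 to the last His3 gene over 85.6%. In that stretch 32 gaps separated the peaks. Of these, 17 were shorter than 120 bp, 12 were longer but under 1 kb and 3 were over 1 kb. The 3 long ones fell on the roo insertion (9068 bp), the pogo insertion (1639 bp) and the assembly gap (1643 bp). By their midpoints, 18 gaps lay in His3-His1 spacers, 7 in His2A-His4 spacers and 1 each in a His3 gene, a His4 gene and the His3-His4 spacer of the third unit, and the other 4 lay in or beside pseudogenes. No gap had its midpoint in a His1, His2A or His2B gene.

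**Figure D2:**
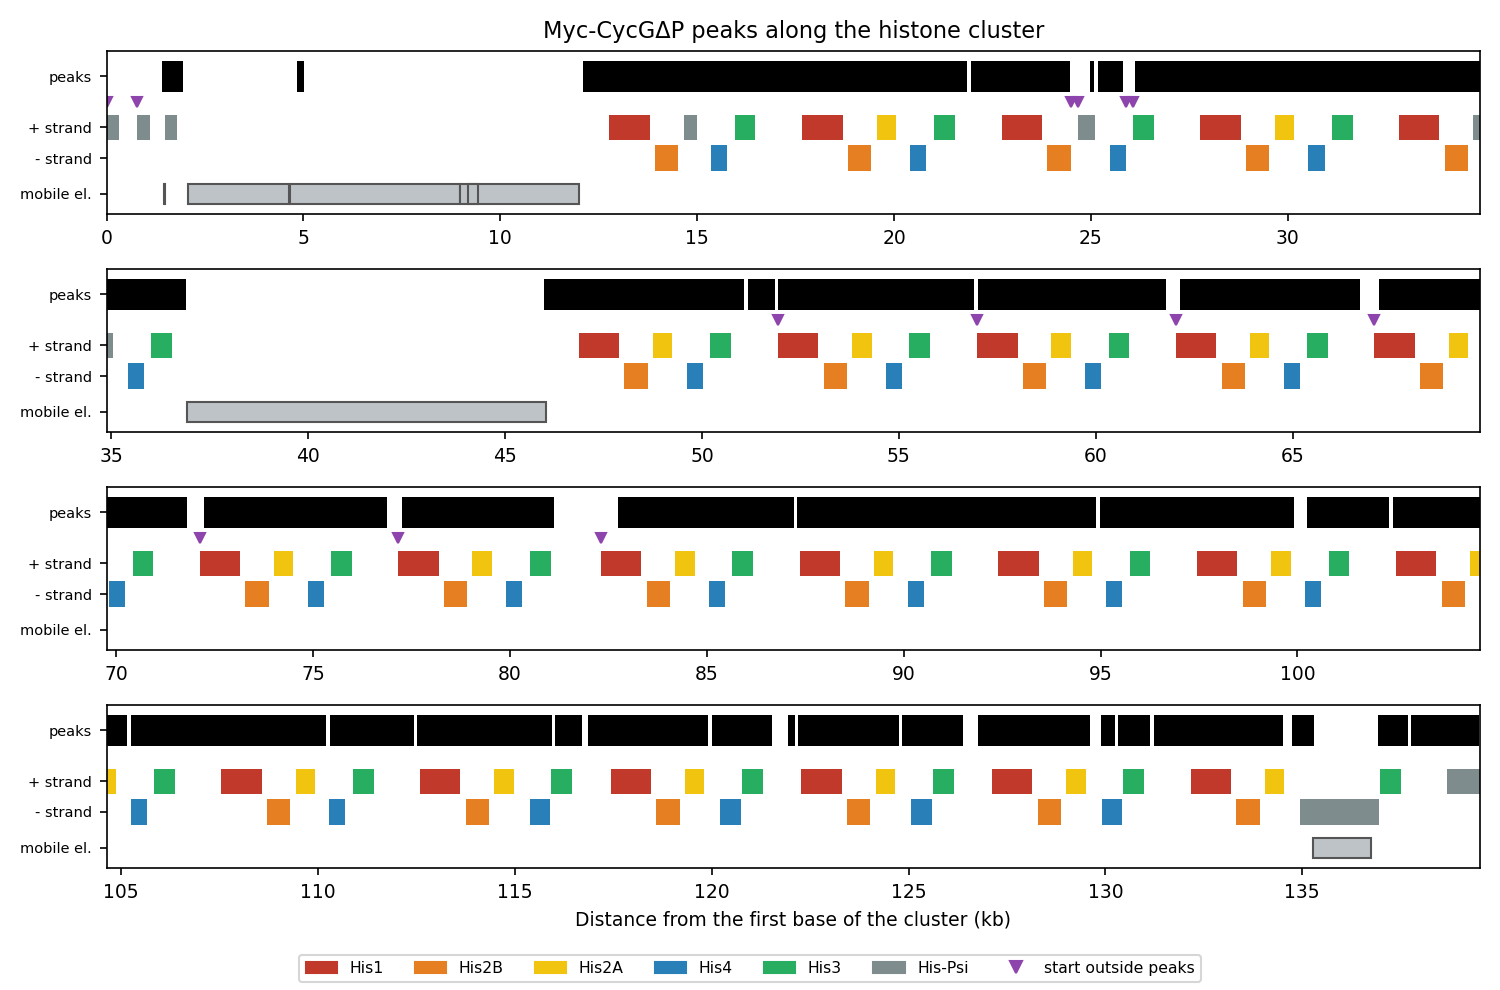
Peaks (black), histone genes by type and strand, and annotated mobile elements (grey boxes) along the cluster, in kb from its first base; triangles mark transcript starts outside peaks. The peaks break at the roo insertion for 9068 bp and at 7 neighbouring His1 starts.

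The larger mobile elements in the cluster were almost free of peaks. The roo insertion was inside peaks over 0.832% of its bases and the pogo insertion over 0.748%. Left of the array, an Idefix and an I element had 0% and a BS element 4.38%. An INE-1 fragment of 36 bp there was wholly inside a peak. The roo words had a median of 114 copies in the genome, more than those of the histone units. The pogo words had a median of 18 copies, and those of the Idefix, BS, I and INE-1 elements a median of 1 copy each. The part of copy number in the coverage of these elements was not tested.

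A repeat unit was taken from one His1 start to the next. There were 22 such intervals, of which 20 were complete units of 4843 to 5061 bp. The interval with roo and the one with the assembly gap were left out. After alignment, each complete unit was 99.0 to 99.9% identical to the majority base, bases missing from a unit not counted. With missing bases counted, units 1, 3 and 19 differed from unit 4 at 196, 64 and 243 columns. Of the 20 units, 3 lay wholly inside a single peak, those beginning with His1:CG33801, His1:CG33807 and His1:CG33837, and 17 were at least 90% inside peaks. The median was 94.7%. The least covered was the third, beginning with His1:CG33804, with 82.0%. It had the lowest identity to the majority base (99.0%, bases missing from a unit not counted) and held 778 words that occur once in the genome, more than any other complete unit. Its longer uncovered stretches lay over the starts of His2B:CG33908 and His-Psi:CR33805 (507 bp) and over those of His4:CG33907 and His3:CG33806 (314 bp). The median word in both of these stretches occurred once. Another uncovered stretch, of 85 bp, held no transcript start, and its median word had 11 copies.

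Along the aligned unit, 47.7% of positions were inside a peak in every unit that has the base. Among positions present in at least 17 of the 20 units, the fewest were at positions 4907 to 4975 from the His1 start, upstream of the next His1 gene, where 12 of 20 units were covered. The second dip lay in the His2A-His4 spacer, with 15 of 20 units at its lowest. The inner parts of His1, His2B and His3 were inside peaks in all 20. The dips were at different places in different stretches of the array. Upstream of His1 they were longest in units 8 to 11, and in the His2A-His4 spacer they came in unit 3 and, unit 19 excepted, in units 15 to 22. Units 19 to 21, which are 4843 bp long and lack bases of the His3-His1 spacer, had their longest gaps in the rest of that spacer.

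**Figure D3:**
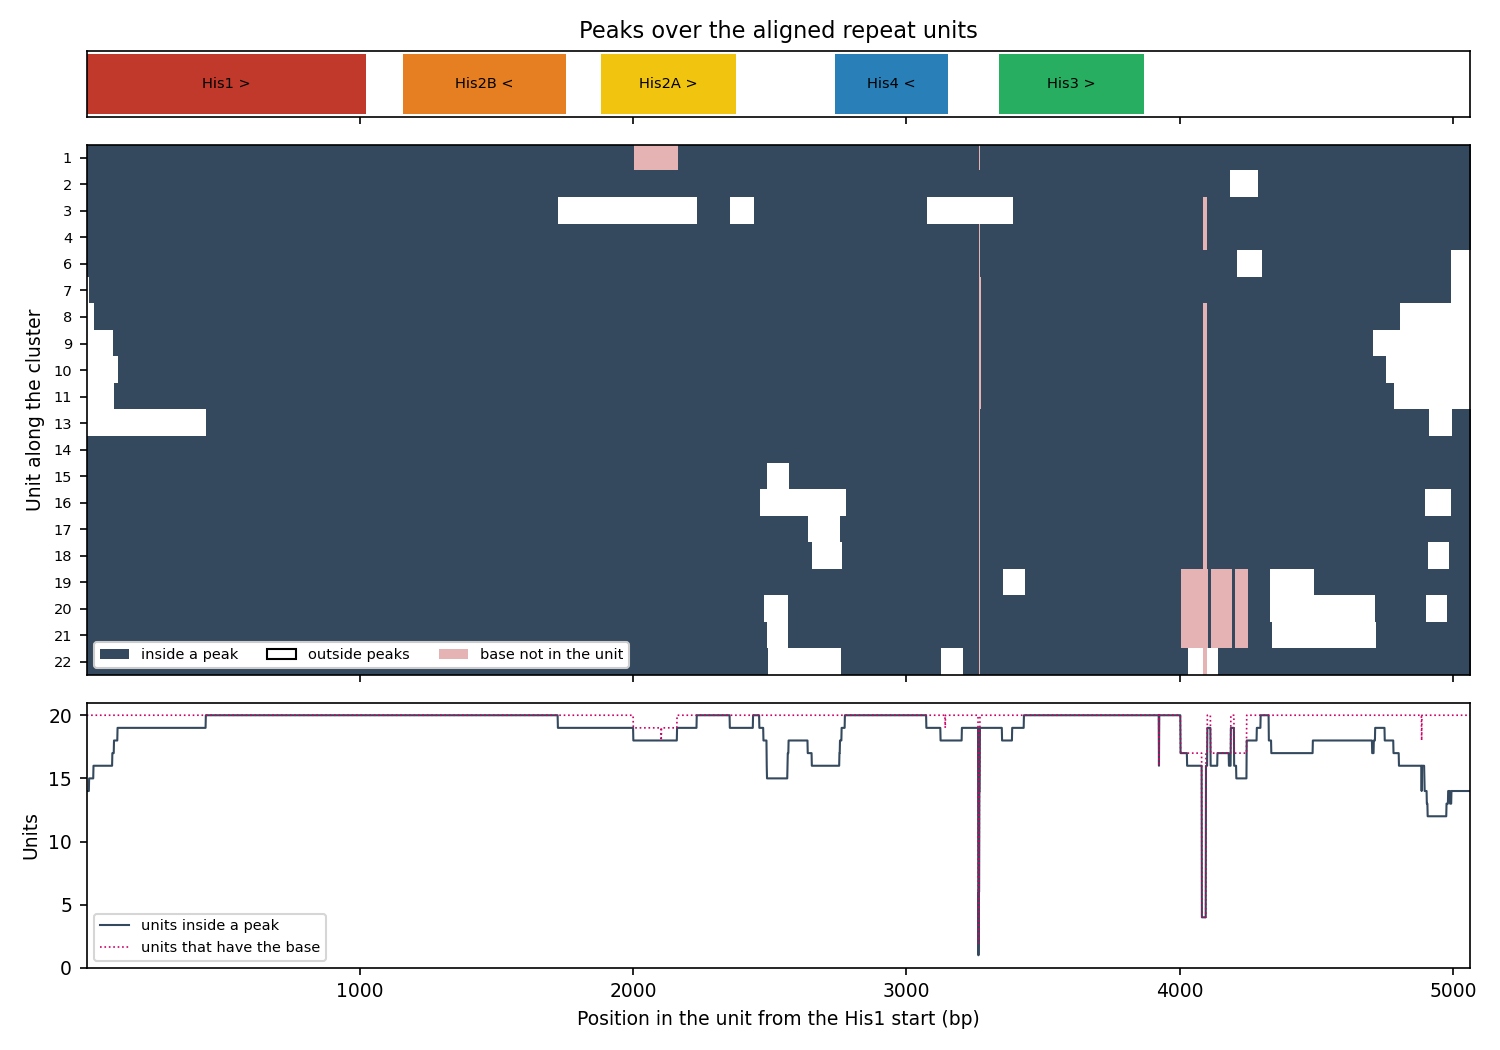
The 20 complete units aligned by sequence, with position from the His1 start (bp) on the horizontal axis, genes on top with arrowheads for strand, one row a unit, and below the number of units inside a peak and the number that have the base. The lowest values among positions shared by nearly all units are the 12 of 20 units upstream of the next His1 gene.

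Some units were identical. Units 9, 10 and 11 were the same over all 5043 bp. They were inside peaks over 91.0, 91.6 and 92.4% of their bases, with gaps at like but not equal places. Units 20 and 21 were also the same, over 4843 bp, and had 88.6 and 90.6%. Only unit 20 had the gap of 80 bp near its end. Of the 5137 repeated words of complete units that lay outside peaks, 3592 (69.9%) had an identical copy inside a peak of the cluster. For most of the uncovered sequence in units, the same letters were thus inside a peak elsewhere in the array.

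Of the 139334 words in the cluster, 7.25% occurred once in the genome, against 86.1% of the words of the genome. In the cluster, 22.4% of the words that occur once began in a peak, and 83.3% of the others did. Within complete units, where mobile elements play no part, the share was 61.2% for words that occur once, 79.9% for 2 to 5 copies, 94.3% for 6 to 15, 97.7% for 16 to 19 and 96.7% for 20 to 25 copies. The words of complete units that occur once and lay outside peaks all fell in units 3 and 13. Gaps of unit 3 held 328 and 178 of them, and the gap at His1:CG33834, where unit 13 begins, held 159. The share of 61.2% thus rests on few units. These shares are descriptions of overlapping words in 1 list, and neighbouring words are not independent. No peak in the cluster was unique, which is defined as having at least 90% of its words occurring once in the genome. In the whole list 739 of 3363 peaks were unique, so most peaks outside the cluster were not unique either. With default settings, the aligner named by the authors reports a single place for a read with several equal matches. The read summary of the study names uniquely aligned reads as those used, and which reads lie behind the peaks of the array could not be told from the list. Input and mock levels over the array were not analysed here.

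**Figure D4:**
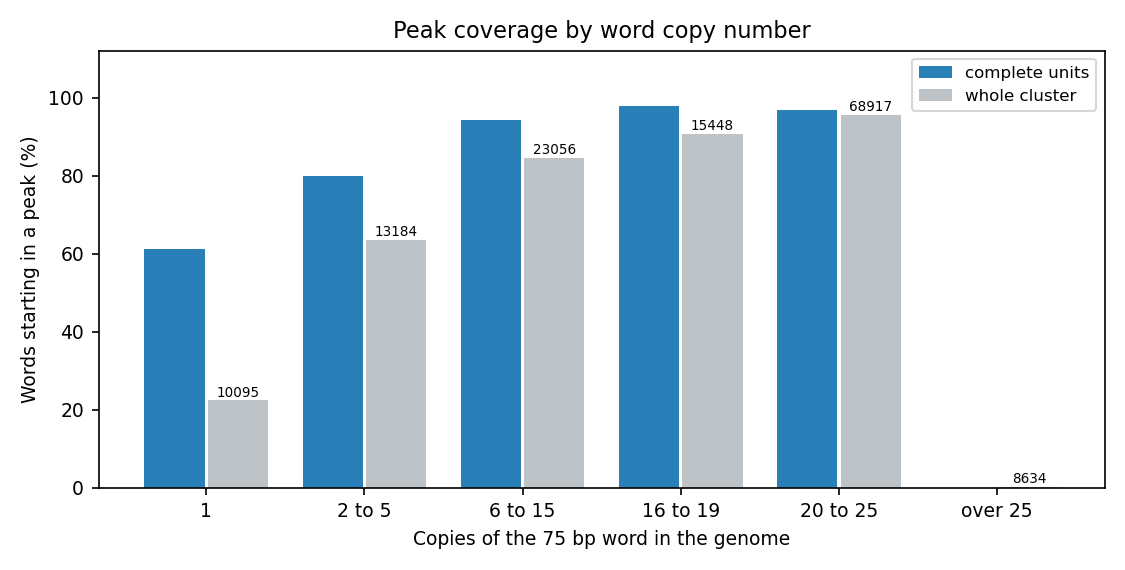
Percent of 75 bp words that begin in a peak, by the number of copies of the word in the genome, for complete units (blue) and the whole cluster (grey, number of words above the bar). In complete units the share was 61.2% for words that occur once and 96.7% for those with 20 to 25 copies. The uncovered words of complete units that occur once all lay in units 3 and 13.

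The single-copy genes lie on sequence in which every word occurs once, so their peaks do not share this limit. His2Av encodes H2Av, the H2A variant that in Drosophila serves as both H2A.Z and H2A.X. It lies at 3R:26866929-26869220, and a peak of 313 bp (3R:26866681-26866993) covered its start. The peak reached from 248 bp before the start to 65 bp into the gene, over 2.84% of the body. With peaks shortened by 100 bp at each end, or with only the wider peaks, no single-copy gene had one. Its centre lay at -92 bp from the start. The 566 unique peaks of the list that hold a transcript start had their centre at a median of -70.2 bp from it (quartiles -98.9 and -45.0 bp) and a median width of 308 bp. The His2Av peak was thus of the usual kind for a promoter, narrow and set upstream, unlike the peaks of the array.

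The other 4 single-copy genes had no peak within 14 kb. His3.3A and His3.3B, which encode the replacement histone H3.3, were 14655 and 62948 bp from the nearest peak. His4r, which encodes an H4 identical to that of the array from a message with a poly(A) tail, was 70585 bp away, and BigH1, the linker histone of the germ line and early embryo, 32377 bp. One of 5 is too few to compare with the 6.61% of all genes that overlapped a peak. H3 and H4 genes of the array thus had peaks at their starts and the replacement H3.3 and H4 genes had none. The array genes are repeated and the replacement genes are not, so histone class and sequence copy number cannot be told apart.

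**Figure D5:**
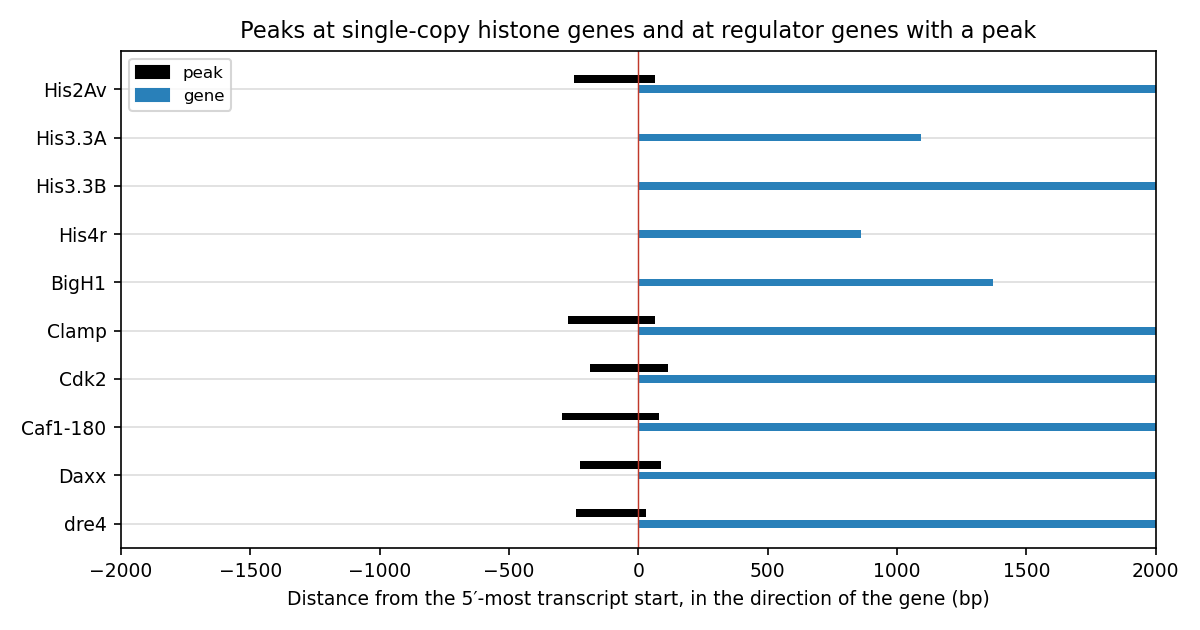
Peaks (black) and gene bodies (blue) around the 5′-most transcript start of the 5 single-copy histone genes and of the 5 regulator genes with a start in a peak, in bp in the direction of the gene. Of the histone genes only His2Av has a peak, from 248 bp before its start.

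Motifs were searched on both strands in the 300 bp promoter windows. TATAAA was present in 105 of 111 intact cluster genes (94.6%), against 44.0% of all genes. It was found in all His1, His2A and His2B genes, in 22 of 23 His3 genes and in 17 of 22 His4 genes. GAGAG, part of the GA repeats bound by the zinc finger protein CLAMP, was in all 23 His3 and all 22 His4 genes and in 0 of the His1, His2A and His2B genes, against 29.4% of all genes. His3 and His4 of a unit share these repeats, which are the CT run in the spacers printed above. The DRE, TATCGATA, was in 0 of 111, against 7.46% of all genes. Peaks covered starts with and without GAGAG in the array, as the values for His2A and His2B show. Neither the TATA box nor the GA repeat nor the full DRE was in the His2Av window. The core ATCGAT, present in 20% of all windows, began at -75 and -60 bp from its start. Among the single-copy genes without a peak, the BigH1 window also held ATCGAT, at -230 bp. The His3.3B window held TATAAA at -137 bp and GAGAG at 17 bp. The His3.3A and His4r windows held none of these motifs. A match is a description of letters only.

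A list of 31 genes for the transcription, 3′ processing and packaging of histones was set beside the array, of which 30 matched a gene of the annotation. A start lay inside a peak in 5 of 30 (16.7%), against 4.94% of all genes. All 5 peaks were unique. With peaks shortened by 100 bp at each end the count was 1 of 30 (Cdk2), against 2.15% of all genes, and with only the wider peaks, at or above the median width, it was 1 of 30 (Caf1-180), against 2.02% of all genes. Among 10 genes for transcription at the locus these were Clamp, which encodes the protein that binds the GA repeats, and Cdk2, the kinase partner of Cyclin E. Among 11 chaperone genes they were Caf1-180, the large subunit of the assembly factor CAF-1, Daxx, a partner of H3.3 deposition, and dre4, the Spt16 subunit of FACT. None of the 8 genes for 3′ processing of histone messages, Slbp and the U7 components among them, had a start in a peak, nor did cid, the centromeric H3. The peaks were 272 to 378 bp wide and their centres lay between -107.5 and -35 bp from the start, the His2Av value of -92 bp among them. The 25 other genes included mxc, the scaffold of the histone locus body, 39606 bp from the nearest peak, and Spt6, 436 bp away.

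Other tandem arrays were covered to different degrees. The rDNA sequence of the build was inside peaks over 71.8% of its bases and 23 of its 25 annotated genes overlapped a peak. The 5S rRNA array was covered over 16.2%, with 19 of 100 genes overlapping, and the Stellate genes over 17.5%, with 7 of 12. For comparison, 6.61% of all genes overlapped a peak and 1.38% of the genome lay inside peaks. The 5S and Stellate shares of bases moved with the peak edges. With peaks shortened by 100 bp at each end they were 10.3% (5S) and 8.19% (Stellate), and with peaks lengthened by as much 21.9% and 26.8%. With only the wider peaks Stellate was at 11.3%. The median word had 20 copies in the histone cluster, 5 in the rDNA sequence, 45 in the 5S array and 11 in the Stellate array. These medians count copies in the assembly only, and the part of copy number in the coverage of the arrays was not tested.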

How the data were processed

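The values analysed are the positions in the deposited peak list. The authors aligned reads with Bowtie2 2.1.0 to dm6, called peaks with MACS2 2.1.0 in each Myc-CycGΔP ChIP against its own input, kept those reproducible between the 2 replicates and merged overlapping ones with bedtools, so the list holds no value per sample. The mock ChIP was not used in the peak calling. Genes came from Ensembl release 115 (FlyBase annotation 6.54) without mobile elements, and sequences from the RefSeq copy of dm6. Coordinates count from 1. Copies of every 75 bp word were counted on both strands, and 30 words searched directly gave 0 disagreements. Units were aligned with MAFFT 7.526. Python 3.11.15 with numpy 2.4.6, statsmodels 0.14.6 and matplotlib 3.10.9 was used. Covered bases were checked on 300 simulated intervals against bedtools and a direct count, with 0 disagreements. No test was run, because the list has no replicates. Intervals printed with counts of genes are 95% Wilson intervals over genes and cover counting error only.

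The members and lists were chosen with earlier results of these data known. In the list of regulators, ubn matched no gene, and dlp was read as its synonym Daxx. Named were all single-copy genes, cluster genes with a start outside peaks or not wholly inside them (up to 15), the first and last gene, those of the most and least covered units, and regulators with a start in a peak. Among the alternatives tried were wider, shortened, lengthened and unique peaks, other promoter windows and other unit definitions.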

Additional observations from a re-analysis of the deposited data

How the results depend on the processing

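Of 65 alternatives over 14 values, 44 left the value within its interval or a count within 1.5 times, and 21 did not. For shares of bases and words, this was a Wilson interval with the number of genes, or of spacers, as its count. It served as a yardstick only and does not measure an error of these shares. The intervals of the 5S and Stellate shares are wide, so shifts of over 1.5 times there count among the 44. With unique peaks only, the cluster held 0 peaks, so the genes overlapping, the starts covered and the units inside a peak all numbered 0 and the shares of span, bodies, promoters, spacers, rDNA, 5S and Stellate sequence were 0%, while the single-copy count (1) and the regulator count (5) stood. With only the wider peaks, and also with peaks shortened by 100 bp at each end, the single-copy count was 0 and the regulator count 1. With at least 50% of the gene inside peaks the single-copy count was 0. Lengthening peaks by 100 bp gave 93.1% of promoter bases. Units at least 90% inside peaks numbered 17 instead of 3.

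Chosen after seeing the data were the span from first His1 to last His3 (85.6%) and joining peaks under 120 bp apart (18 peaks and 9 units). Leaving out a replicate was not possible, since the list merges both. No paired analysis was possible because no value comes from a test.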

Other observations

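The array also holds 20 annotated copies of a small non-coding RNA gene, each 36 bp long and lying in a His2A gene. Of these, 20 of 20 were wholly inside peaks, against 1.11% of all genes. As 19 of the 20 His2A genes were wholly inside too, this count is not separate from theirs. In 4 His4 genes, in units 19 to 22, the annotated start lies further upstream than in the others, and the starts of His3 and His4 are as near as 26 bp there, so start counts for these genes rest on the annotation.

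Among the 25 regulator genes without a start in a peak, 13 had ATCGAT in the promoter window and 7 had GAGAG, against 2 and 3 of the 5 with one.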
